A study of Mus musculus with 160 samples.

Results

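The genes of glucose uptake and glycolysis described here were *Slc2a1*, *Hk1*, *Hk2*, *Pfkl*, *Pfkp*, *Aldoa*, *Pgk1*, *Eno1*, *Pkm* and *Ldha*. They were chosen by name, with earlier results of these data known. The Ensembl identifiers of the count table were matched to mouse gene symbols, and the members are 10 of the 46078 genes in it. RNA sequencing was carried out on 160 pools of 20 sorted cells from the aorta-gonad-mesonephros (AGM) region of mouse embryos, the region where the first hematopoietic stem cells arise. All embryos, including those that gave the control pools, carried the *Gata3*-GFP reporter on one allele (genotype *Gata3*-GFP +/-), so each comparison is between cells with and without GFP of reporter embryos, and no treatment was given. At E10.5 the populations were *Gata3*-GFP+ and *Gata3*-GFP- endothelial cells (ECs, sorted as Cdh5+ CD41- CD45-) and hematopoietic cells (HCs, CD41+ CD45+). At E11.5 they were mesenchymal cells (MCs, Pdgfrb+) and cells of the sympathetic nervous system (SNS, Ngfr+), again each with and without GFP. Each population had 20 pools. Several embryos were pooled for each biological replicate, but the pools are not tied to a replicate, so p-values measure the spread between pools. By the paper's account the cells came from far fewer biological replicates than there are pools, so n counts pools and not independent samples. GFP marks the cells in which the *Gata3* locus is or was recently active, since GFP can outlast its RNA, and it does not mark one cell type.

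Glycolysis splits glucose into pyruvate in the cytosol and yields ATP without oxygen. Glucose enters through facilitative transporters, is trapped by hexokinase, is committed by phosphofructokinase and, after the lower enzymes, leaves as pyruvate or, through lactate dehydrogenase, as lactate. Several steps have isozymes encoded by separate genes, and many of the genes are textbook targets of the hypoxia-inducible factors and of Myc, while endothelial and proliferating cells are known for a high glycolytic rate.

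Of the 160 pools, 153 passed the limits of the study's methods, with 1400824 to 16004756 counts on genes (median 3801233). Endothelial and hematopoietic pools carried the markers of their gate, and none of the E10.5 pools had more counts on the markers of the other cell type. At E11.5, 12 of the 74 passing pools did, 3 in each of the 4 populations. In the order of the columns these were pools 18, 19 and 20 of each population. The 6 pools labelled MC among them had 33.5 to 376 CPM (counts scaled to a common library total) on the 6 MC markers and 789 to 2973 CPM on the 6 SNS markers, and the 6 labelled SNS had 2094 to 3913 CPM on the MC markers and 16.1 to 35.7 CPM on the SNS markers. Their *Gata3* level also ran against the GFP label. The 3 pools labelled MC without GFP had 293 ± 148 CPM (mean ± SD) of it and the 3 labelled MC with GFP 43.8 ± 33.4 CPM, while the SNS labels gave 47.9 ± 3.12 CPM without GFP and 15.8 ± 7.47 CPM with it (3 pools each). Comparisons at E11.5 with all pools include these pools as labelled. No pool was moved to another group. The E11.5 comparisons of the 10 genes are given with and without these 12 pools, a choice made after seeing the data. *Gata3* itself was higher in *Gata3*-GFP+ pools of ECs (log2 fold change 2.66, SE 0.22, adjusted p = 9.64e-14, edgeR), HCs (2.89) and SNS (1.85). In MCs its log2 fold change was -0.66 (adjusted p = 0.496), and 1.88 (adjusted p = 9e-08) without the 12 pools.

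**Figure D1:**
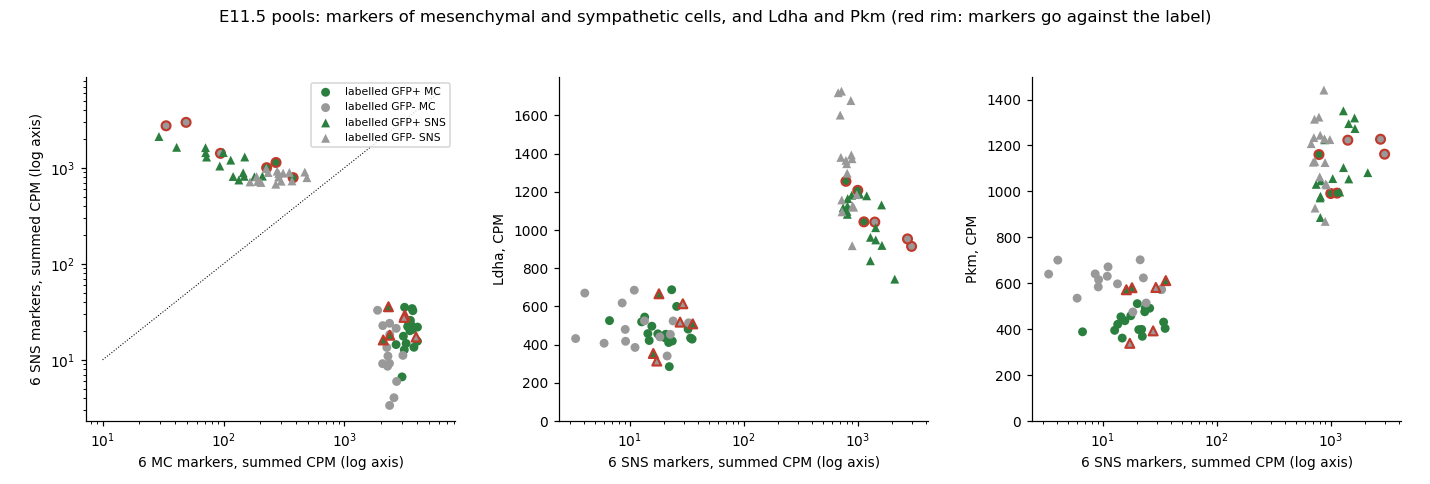
Marker and glycolysis gene levels in the 74 passing E11.5 pools. Left, summed CPM of the 6 MC markers against that of the 6 SNS markers on log axes, with the line of equality; middle and right, *Ldha* and *Pkm* in CPM against the SNS marker sum. Circles are pools labelled MC, triangles pools labelled SNS, green *Gata3*-GFP+, grey *Gata3*-GFP-, and the 12 red rims mark pools whose markers go against the label; these sit with the other cell type on all 3 plots.

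On GRCm38 (GENCODE M21), *Slc2a1* lies at chr4:119108711-119137983, *Hk1* at chr10:62268855-62379908, *Hk2* at chr6:82725025-82774454, *Pfkl* at chr10:77986947-78010083 and *Pfkp* at chr13:6579768-6648777. *Aldoa* lies at chr7:126795234-126800751, *Pgk1* at chrX:106187100-106203699, *Eno1* at chr4:150236721-150248879, *Pkm* at chr9:59656368-59679375 and *Ldha* at chr7:46841475-46855627. Counts are of reads over exons, and where a gene has a near-identical copy the reads may be split. Annotated copies held counts equal to 20.1% of those of *Eno1*, of which *Eno1b* made 12.5%, to 9.61% of *Pkm* and to 5.96% of *Pgk1*, and adding them to the parent gene left the number of the 10 genes past the threshold the same in each comparison. The strand setting of the counting is not stated, and opposite-strand genes cover 5.58% of the exon bases of *Pfkp*, 3.0% of *Slc2a1*, 1.84% of *Hk1* and 0.859% of *Aldoa*. All 10 genes passed the filter on low counts in every comparison.

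The promoters of 4 of the genes are shown because they contrast in ACGTG and CACGTG, letters that hypoxia-inducible factors and Myc are known to recognise. Other forms of these sites, such as the GCGTG in the *Eno1* window, were not searched. ACGTG and CACGTG were searched on both strands in the 250 bases before each RefSeq start, and every CACGTG also holds ACGTG on both strands. *Ldha* and *Pgk1*, which fell in *Gata3*-GFP+ ECs, hold ACGTG. *Eno1*, which fell as well, does not hold ACGTG, nor does *Hk1*, whose log2 fold change there was above 0. The sequences are those of RefSeq on GRCm38.p6, 5′ to 3′ on the strand of the gene, with matches in capitals. The positions are chr7:46845554-46845803 (plus strand) for *Ldha*, chrX:106186850-106187099 (plus) for *Pgk1*, chr4:150236458-150236707 (plus) for *Eno1* and chr10:62379909-62380158 (minus) for *Hk1*.
Ldha: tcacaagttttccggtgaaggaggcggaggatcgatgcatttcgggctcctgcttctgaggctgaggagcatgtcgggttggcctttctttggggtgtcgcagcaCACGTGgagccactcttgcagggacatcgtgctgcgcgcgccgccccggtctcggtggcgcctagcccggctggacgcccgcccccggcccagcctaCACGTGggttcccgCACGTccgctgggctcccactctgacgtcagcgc
Pgk1: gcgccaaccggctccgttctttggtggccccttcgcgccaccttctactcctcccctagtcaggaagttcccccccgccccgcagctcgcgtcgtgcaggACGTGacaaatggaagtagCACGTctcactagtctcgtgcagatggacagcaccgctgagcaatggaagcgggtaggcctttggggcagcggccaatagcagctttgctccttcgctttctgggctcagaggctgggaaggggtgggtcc
Eno1: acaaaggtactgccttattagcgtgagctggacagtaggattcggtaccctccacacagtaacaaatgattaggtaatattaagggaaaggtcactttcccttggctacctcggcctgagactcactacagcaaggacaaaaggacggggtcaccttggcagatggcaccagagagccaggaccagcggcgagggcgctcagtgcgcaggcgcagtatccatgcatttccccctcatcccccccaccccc
Hk1: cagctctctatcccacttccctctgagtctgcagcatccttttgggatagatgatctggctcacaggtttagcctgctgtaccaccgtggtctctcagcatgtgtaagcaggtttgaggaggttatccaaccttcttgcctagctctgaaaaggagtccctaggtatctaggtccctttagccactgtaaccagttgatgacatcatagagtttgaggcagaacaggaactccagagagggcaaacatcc
*Ldha* holds matches in 3 places, of which 2 are CACGTG, and *Pgk1* in 2 places. Of 17 windows for the 10 genes, 7 hold ACGTG and 1 holds CACGTG, against 16.57% and 6.021% of 32851 windows of the same length. Windows with ACGTG belong to *Slc2a1*, *Hk2*, *Aldoa*, *Pgk1*, *Pkm* and *Ldha*. Windows of one gene can overlap, and the 2 of *Aldoa* with ACGTG share the same match, so the windows are not independent. The match of letters describes these windows and does not show a bound site.

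The enzymes from aldolase onwards, called the lower enzymes here, made most of the counts. Per kilobase of exon, mean levels in *Gata3*-GFP- HCs were 664 CPM for *Aldoa*, 656 for *Ldha*, 186 for *Pkm* and 131 for *Eno1*, against 23.7 for *Slc2a1*, 17.5 for *Pfkl*, 2.33 for *Hk1* and 2.16 for *Pfkp*. The 10 genes together took a median of 0.595% of gene counts in *Gata3*-GFP- HCs, and 0.525% in those with GFP. They took 0.409% in *Gata3*-GFP- SNS, 0.408% in *Gata3*-GFP- ECs, and 0.370% in the SNS with GFP. The lowest shares were 0.216% in *Gata3*-GFP- MCs, 0.189% in the ECs with GFP and 0.176% in the MCs with GFP. The shares without the 12 pools were 0.430% and 0.374% in SNS without and with GFP, and 0.213% and 0.174% in MCs. HCs thus stood at the top of the order, and *Gata3*-GFP+ ECs sat with the MCs rather than with the other ECs.

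**Figure D2:**
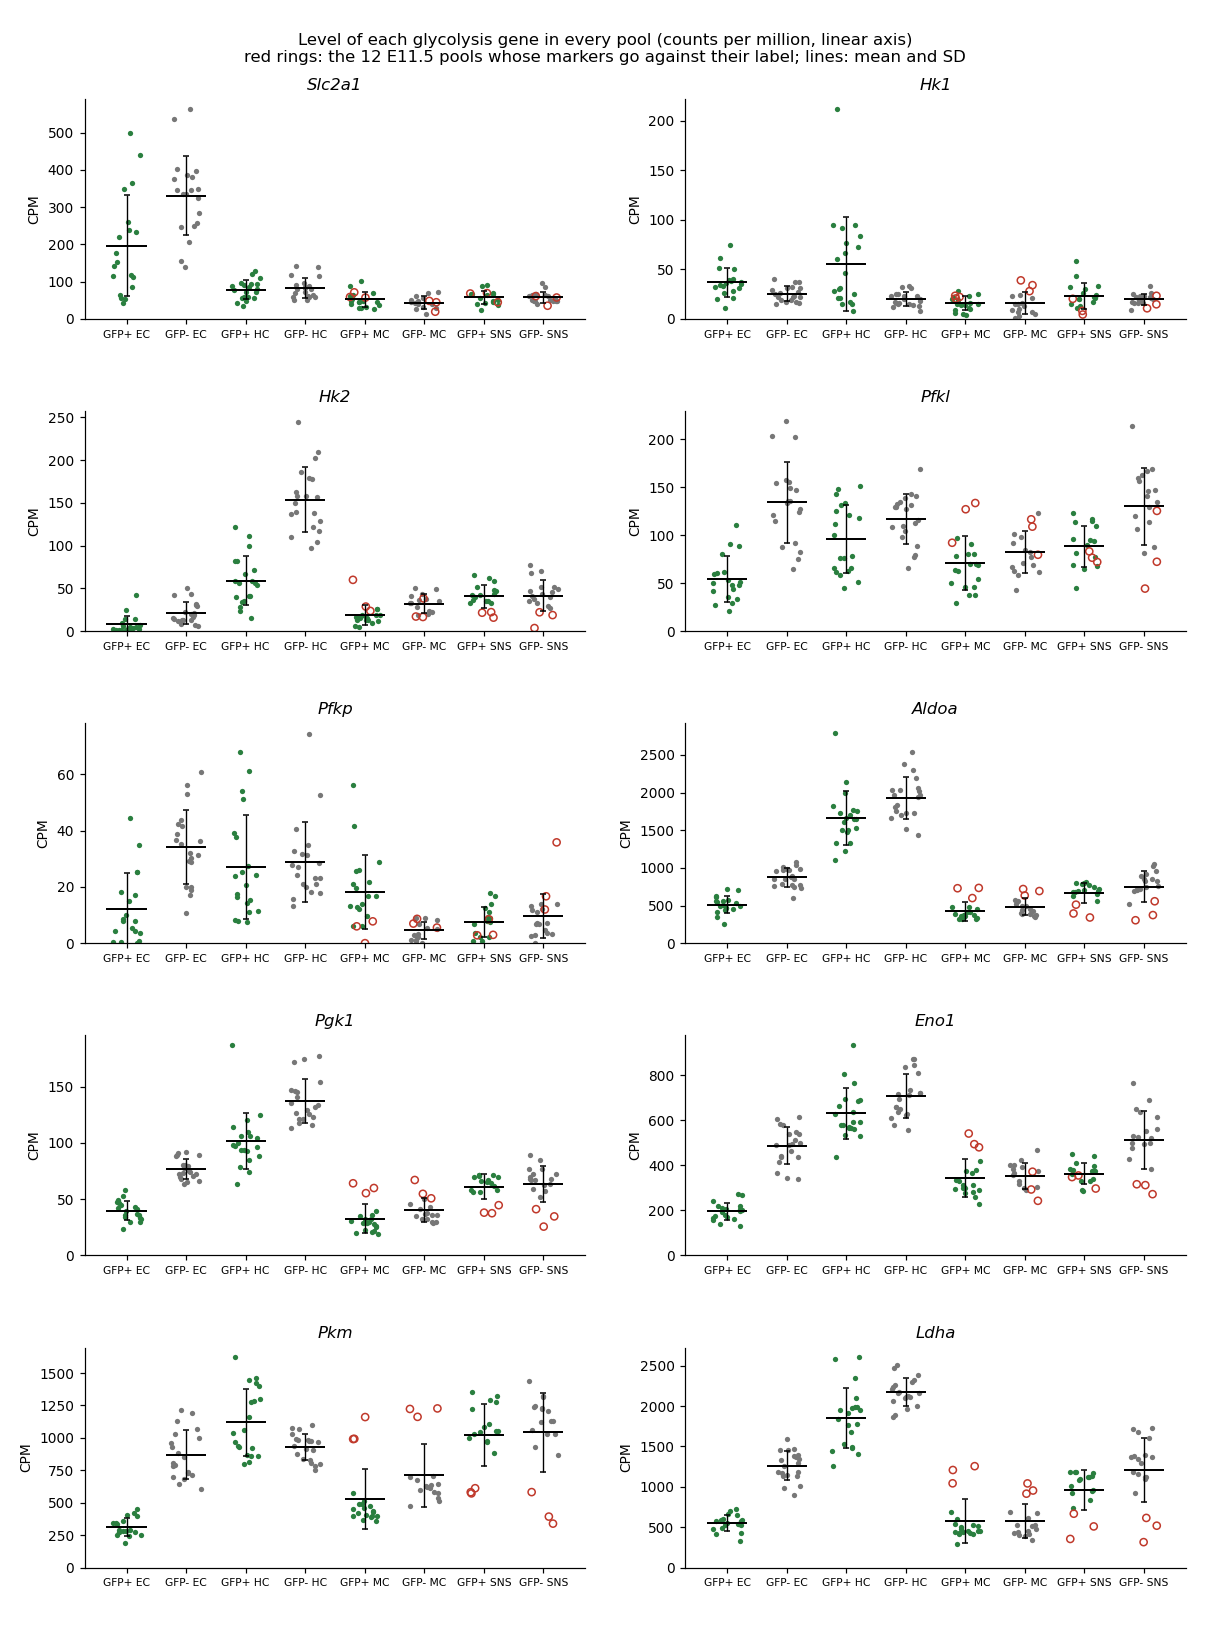
Level of each of the 10 genes in all 153 passing pools, in CPM on a linear axis, by population. Green points are *Gata3*-GFP+ and grey points *Gata3*-GFP- pools, lines the mean and SD, and red rings the 12 E11.5 pools whose markers go against their label; *Ldha* runs from a mean of 552 CPM in *Gata3*-GFP+ ECs to 2172 CPM in *Gata3*-GFP- HCs with all pools, while *Slc2a1* peaks in ECs.

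The genes did not share one order of populations. *Slc2a1*, which encodes the GLUT1 transporter, was highest in *Gata3*-GFP- ECs (331 CPM ± 107 SD, n = 20) and next in the ECs with GFP (196 ± 135, n = 19), with 43.6 to 83.2 CPM in the other populations. *Hk2*, the inducible hexokinase, was highest in *Gata3*-GFP- HCs (154 ± 38.0), 19.7 times the 7.81 CPM of *Gata3*-GFP+ ECs. *Hk1*, the housekeeping hexokinase, peaked in *Gata3*-GFP+ HCs at 55.5 ± 47.5 CPM, and the other populations had means of 15.8 to 36.9 CPM. *Pfkl*, the liver-type phosphofructokinase, varied least, by 2.47 times from 134 CPM in *Gata3*-GFP- ECs to 54.3 in *Gata3*-GFP+ ECs. Its highest mean without the 12 pools was that of *Gata3*-GFP- SNS (140 CPM), and the range was 2.57 times. *Pfkp*, the platelet type, ran from 34.2 CPM in *Gata3*-GFP- ECs to 4.59 in *Gata3*-GFP- MCs, where the median pool had 15 counts.

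For the lower enzymes the order was more alike. *Aldoa* (aldolase A), *Pgk1* (phosphoglycerate kinase), *Eno1* (alpha-enolase) and *Ldha* (lactate dehydrogenase A) were all highest in *Gata3*-GFP- HCs, with the HCs with GFP next. *Pkm*, the pyruvate kinase of most tissues, was highest in *Gata3*-GFP+ HCs (1121 ± 259 CPM), where *Gata3*-GFP- SNS (1044 ± 306) and *Gata3*-GFP+ SNS (1024 ± 240) followed. *Gata3*-GFP- SNS came first without the 12 pools (1158 ± 150 CPM), though it did not differ from *Gata3*-GFP+ HCs in either case. *Ldha* was lowest in *Gata3*-GFP+ ECs with all pools (552 CPM) and in *Gata3*-GFP+ MCs without the 12 (474 CPM). In 8-population edgeR fits, 15 of the 70 pairs of neighbours in these orders differed at an adjusted p under 0.01, and 19 without the 12 pools. Neighbours differed below *Gata3*-GFP+ HCs for *Aldoa*, *Pgk1*, *Eno1* and *Ldha*, and between both EC populations and below them for *Slc2a1*. No pair of neighbours differed for *Hk1*, *Pfkl* or *Pfkp*. The populations of E10.5 and E11.5 differ in day as well as in cell type, which cannot be told apart.

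The comparison of *Gata3*-GFP+ with *Gata3*-GFP- ECs asks how ECs that express the reporter differ from the other ECs. In it 9 of the 10 genes fell and *Hk1* was the exception. The median log2 fold change of the 10 was -1.29, against 0.10 over all 15073 genes tested. All genes called made up 36.0% of those tested, with 19.5% higher and 16.5% lower. For *Pgk1*, *Eno1*, *Pkm* and *Ldha* the pools of both populations did not overlap, as for 3.03% of all genes tested.

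Uptake and trapping of glucose differed with a wide spread. Values are given as the lowest, the median and the highest pool, first of the population with GFP. *Slc2a1* pools ran from 41.9 through 153 to 499 CPM in ECs with GFP and from 141 through 342 to 563 in the others. It fell by 0.80 on the log2 scale (SE 0.24, adjusted p = 0.00581, edgeR), although 4 of 19 *Gata3*-GFP+ pools lay above the median of the *Gata3*-GFP- pools. Without the filter on low counts *Slc2a1* did not pass (-0.78, adjusted p = 0.0122). *Hk2* pools ran from 1.07 through 3.98 to 41.8 CPM against 5.51 through 17.4 to 50.1, and the log2 fold change was -1.48 (SE 0.39, adjusted p = 0.00164). Among the *Gata3*-GFP+ pools 8 had under 10 counts on *Hk2*, so its fold rests on few reads. *Hk1* had a log2 fold change of 0.50 (SE 0.16, adjusted p = 0.0115). It passed in DESeq2 (adjusted p = 0.00432), and with spike-in scaling its log2 fold change was -0.077. For *Hk1*, 16 of 19 *Gata3*-GFP+ pools lay above the *Gata3*-GFP- median.

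Both phosphofructokinase genes fell. *Pfkl* pools ran from 21.0 through 49.9 to 111 CPM against 64.5 through 134 to 219, a log2 fold change of -1.34 (SE 0.17, adjusted p = 1.22e-08). *Pfkp* ran from 0 through 7.93 to 44.4 against 10.7 through 33.6 to 60.8, a log2 fold change of -1.51 (SE 0.40, adjusted p = 0.00184). All 19 *Gata3*-GFP+ pools lay below the *Gata3*-GFP- median for *Pfkl*, and 17 of 19 did for *Pfkp*.

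The lower enzymes separated both populations best. *Aldoa* fell by 0.81 (SE 0.09, adjusted p = 1.49e-10), from a mean of 875 ± 124 CPM to 513 ± 114, and its ranges of 594 to 1076 and 253 to 715 CPM overlapped. *Pgk1* ran from 23.5 through 39.6 to 58.2 CPM against 63.1 through 74.5 to 91.5, and fell by 0.99 (SE 0.09, adjusted p = 2.2e-12). *Eno1* ran from 132 through 196 to 273 CPM against 338 through 492 to 616, and fell by 1.36 (SE 0.09, adjusted p = 3.62e-17). For *Pgk1* and *Eno1* these were gaps between the highest *Gata3*-GFP+ and the lowest *Gata3*-GFP- pool, not only shifts of the mean.

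*Pkm* and *Ldha* behaved in the same way. *Pkm* ran from 192 through 287 to 454 CPM against 603 through 826 to 1215. It fell by 1.52 (SE 0.10, adjusted p = 5.25e-17), the largest change of the 10. *Ldha* ran from 331 through 551 to 723 CPM against 901 through 1276 to 1586, and fell by 1.23 (SE 0.08, adjusted p = 2.52e-17).

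Other quantities moved with this comparison. Counts on genes per ERCC spike-in count were lower in *Gata3*-GFP+ ECs (log2 ratio 5.95 ± 0.44 SD, n = 19) than in *Gata3*-GFP- ECs (6.66 ± 0.41, n = 20). Fewer cells in a pool and less RNA per cell cannot be told apart here. Scaled to the spike-ins, the median of all genes became -0.60 and that of the 10 genes -2.04, and the same 9 genes fell. The 7 cycling genes summed to a median of 645 CPM (258 to 1592) with GFP and 1590 CPM (1005 to 2002) without, and 5 of the 7 fell. The 6 MC markers summed to 56.2 CPM (20.1 to 1302) against 12.3 (1.60 to 65.5), all 6 rising, and the 4 epithelial markers to 59.7 (at most 122) against 1.06 (0.175 to 7.82), with *Krt8* and *Krt18* rising. The 6 EC markers summed to 4906 CPM (4354 to 5533) and 3332 (2834 to 4287). The 6 HC markers summed to 247 CPM (171 to 367) against 83.9 (at least 38.3), without overlap, and 2 of 5 tested rose. Of the 6 dissociation genes 3 fell, and the mitochondrial share was 7.66% (6.55 to 9.28) against 6.46% (4.80 to 8.64). The part of these in the result was not tested. Without 2 *Gata3*-GFP+ EC pools 9 genes fell again. The 2 were picked for the fewest counts on genes or for over 1000 CPM on the MC markers.

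**Figure D3:**
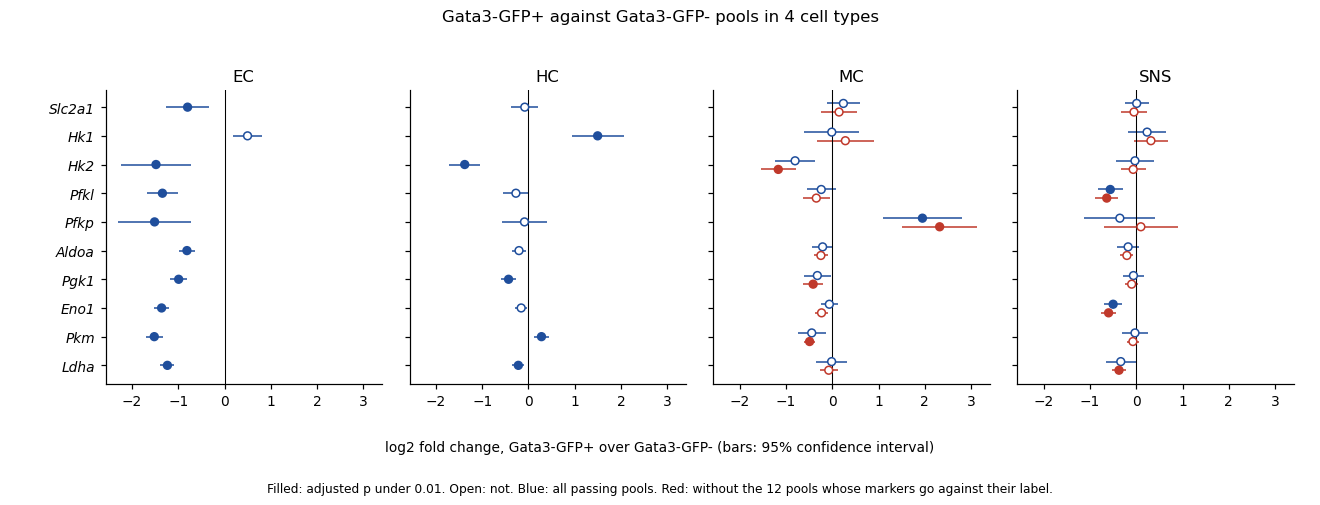
Log2 fold change of the 10 genes in *Gata3*-GFP+ over *Gata3*-GFP- pools of ECs, HCs, MCs and SNS, on a linear axis. Points are edgeR estimates with bars of the 95% confidence interval, filled where the adjusted p is under 0.01, blue for all passing pools and red without the 12 pools; 9 genes lie left of 0 and are filled in ECs, while in the other cell types filled points lie on both sides or are few.

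In HCs the genes split. *Hk1* and *Pkm* rose in *Gata3*-GFP+ HCs and *Hk2*, *Pgk1* and *Ldha* fell, while *Slc2a1*, *Pfkl*, *Pfkp*, *Aldoa* and *Eno1* did not pass the test. The 5 calls of 10 stand beside 26.6% of all 16200 genes tested, 17.1% higher and 9.53% lower, and the median log2 fold change of the 10 was -0.18 against 0.05. No gene of the 10 had pools that did not overlap, as 0.0802% of all genes did. The study's test called 1 gene higher, *Hk1*, and 5 lower, with *Aldoa* (adjusted p = 0.00176) and *Eno1* (0.00302) among them and *Pkm* not called (0.101).

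The hexokinases moved in opposite directions. *Hk1* ran from 7.76 through 38.8 to 211 CPM against 8.38 through 18.8 to 33.4, and rose 2.82-fold (SE 0.29 on the log2 scale, adjusted p = 5.35e-05). In 10 of the 20 pools with GFP *Hk1* exceeded the highest pool without GFP, and 1 lay below the lowest. *Hk2* ran from 14.8 through 56.2 to 122 CPM against 97.6 through 153 to 245, and fell by 1.38 (SE 0.17, adjusted p = 4.94e-08). For *Hk2*, 17 of 20 pools with GFP lay below the lowest pool without.

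The lower enzymes differed little. *Pgk1* ran from 63.7 through 97.5 to 187 CPM against 113 through 133 to 178 and fell by 0.43 (SE 0.08, adjusted p = 6.67e-05). *Ldha* ran from 1263 through 1874 to 2608 against 1869 through 2162 to 2514 and fell by 0.22 (SE 0.07, adjusted p = 0.00777). *Pkm* ran from 799 through 1050 to 1624 against 753 through 954 to 1096 and rose by 0.28 (SE 0.08, adjusted p = 0.00385). The *Ldha* call was lost in 6 alternatives, at adjusted p of 0.0112 to 0.108, and the *Pkm* call in 4, at 0.0136 to 0.239. Pools with GFP spread wider on all 3 genes, and 1 exceeded the highest pool without GFP for *Pgk1*, 2 for *Ldha* and 9 for *Pkm*. The log2 fold change of *Slc2a1* was -0.08, with a 95% confidence interval of -0.37 to 0.21, and that of *Pfkp* -0.08, with an interval of -0.57 to 0.40.

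*Gata3*-GFP+ HC pools carried genes of other cells. Their 6 SNS markers summed to a median of 30.8 CPM (1.10 to 1153) against 4.30 (0.204 to 8.65), the 6 MC markers to 250 (12.9 to 640) against 30.5 (1.05 to 128) and the 6 macrophage markers to 3140 (49.8 to 7963) against 4292 (2755 to 5822). All 6 SNS and all 6 MC markers rose. The 6 HC markers summed to 1868 CPM (1510 to 2949) against 3264 (2809 to 4192), with 4 lower and *Itga2b* higher. The EC markers summed to 162 CPM (80.0 to 550) against 51.2 (24.7 to 135), with 5 of 6 higher, and the epithelial markers to 42.5 (1.55 to 146) against 7.53 (0.291 to 19.5), all 4 rising. The 7 cycling genes summed to 1252 CPM (701 to 1937) against 1734 (1264 to 2200), with 3 lower, and the 6 dissociation genes to 351 (152 to 880) against 789 (497 to 1418), with 4 lower. Their part in the result was not tested. Without 7 *Gata3*-GFP+ HC pools with over 100 CPM on the SNS markers or under 100 on the macrophage markers 3 of the 10 genes were called, and *Pkm* (adjusted p = 0.0193) and *Ldha* (0.0112) no longer passed.

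Between cell types of E10.5, HCs had more of the lower enzymes and less *Slc2a1* than ECs. Among *Gata3*-GFP+ pools 8 genes were higher in HCs and *Slc2a1* was lower, beside 42.9% of genes called, 23.3% higher and 19.7% lower. *Pkm* was 1.80 higher on the log2 scale (SE 0.09, adjusted p = 9.6e-30), *Ldha* 1.71 (SE 0.07, adjusted p = 2.89e-34), *Aldoa* 1.66, *Eno1* 1.65, *Pgk1* 1.32 and *Hk2* 2.84. The call of *Slc2a1* was lost with spike-in scaling (adjusted p = 0.0167) and that of *Pfkp* without 2 EC pools (0.0131). Pools did not overlap for *Aldoa*, *Pgk1*, *Eno1*, *Pkm* and *Ldha*, against 3.98% of all genes. Among *Gata3*-GFP- pools, with 38.3% of genes called (18.1% higher and 20.2% lower), *Hk2*, *Aldoa*, *Pgk1*, *Eno1* and *Ldha* were higher and *Slc2a1* lower. *Hk2* was 2.81 higher (SE 0.30, adjusted p = 1.49e-13) and *Ldha* 0.74 (SE 0.07, adjusted p = 3.34e-15), while *Slc2a1* was 2.04 lower (log2 fold change -2.04, SE 0.21, adjusted p = 5.25e-14). *Pkm* had a log2 fold change of 0.05, with an interval of -0.13 to 0.22. Pools of *Hk2*, *Aldoa*, *Pgk1* and *Ldha* did not overlap, against 7.71% of all genes. Both comparisons share pools with those within ECs and HCs.

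The difference itself between the GFP comparison in HCs and that in ECs was tested for each gene, and 22.5% of all genes passed, 13.2% higher and 9.27% lower. It passed for 6 of the 10, all with a higher value in HCs. These were *Pkm* (1.76, SE 0.13, adjusted p = 1.19e-19), *Eno1* (1.16, SE 0.11, adjusted p = 1.65e-14), *Pfkl* (1.03), *Ldha* (0.97), *Aldoa* (0.56) and *Pgk1* (0.52). For *Pkm* the sign of the estimates differed as well, and its rise in HCs was lost in the 4 alternatives given above. *Hk2* fell in both, with a difference of 0.03 and an interval of -0.69 to 0.76.

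In MCs of E11.5, *Pfkp* was the one that rose in *Gata3*-GFP+ pools. With all pools it was the only call of 10, beside 4.36% of all 16026 genes tested, 2.21% higher and 2.15% lower. *Pfkp* ran from 0 through 15.5 to 56.3 CPM with GFP and from 0 through 4.96 to 9.07 without. It rose by 1.95 on the log2 scale (SE 0.44, adjusted p = 0.00288), and 15 of 20 pools with GFP exceeded the highest of the others. No gene of the 10 had pools that did not overlap (0.0312% of all genes, and 0.571% without the 12 pools, where none of the 10 did either). With spike-in scaling *Pfkp* did not pass (adjusted p = 0.0140). Its levels were low, with under 10 counts in 6 of the 17 *Gata3*-GFP- pools.

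Without the 12 pools 4 genes were called in MCs, beside 10.4% of genes (5.52% higher and 4.90% lower). *Pfkp* rose by 2.32 (SE 0.41, adjusted p = 8.79e-05), and *Hk2*, *Pgk1* and *Pkm* fell. *Hk2* ran from 5.25 through 15.8 to 25.8 CPM against 19.2 through 34.1 to 50.8 and fell by 1.17 (SE 0.19, adjusted p = 2.38e-05). *Pkm* ran from 361 through 431 to 573 CPM against 475 through 620 to 702 and fell by 0.49 (SE 0.06, adjusted p = 1.59e-07). All 17 *Gata3*-GFP+ pools lay below the *Gata3*-GFP- median for both genes, though the ranges overlapped. *Pgk1* fell by 0.41 (SE 0.11, adjusted p = 0.00796). *Ldha* had a log2 fold change of -0.08 with an interval of -0.27 to 0.11. Over the 10 genes the median was -0.14 with all pools and -0.24 without the 12, against -0.01 and 0.01 for all genes. Of the 7 cycling genes 2 fell with all pools and 4 without the 12. The 6 dissociation genes without the 12 pools summed to 821 CPM (436 to 1412) against 485 (250 to 1348), with 2 higher, and the 6 MC markers to 3479 (2672 to 4016) against 2358 (1879 to 3044), with 3 higher and 1 lower. With all pools *Th* and *Dbh* fell among the 6 SNS markers. Of the 12 pools, those labelled MC without GFP had 1414 to 2973 CPM on these markers. Those labelled MC with GFP had 789 to 1135 CPM. Without the 12 pools the SNS markers summed to a median of 20.70 CPM (6.65 to 35.3) with GFP and 11.04 CPM (3.35 to 32.8) without. The part of these in the result was not tested.

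In SNS, *Pfkl* and *Eno1* fell in *Gata3*-GFP+ pools and no gene of the 10 rose. These are 2 calls of 10, beside 3.87% of genes, 2.01% higher and 1.85% lower. *Eno1* ran from 285 through 367 to 449 CPM with GFP and from 272 through 519 to 763 without. It fell by 0.50 (SE 0.10, adjusted p = 0.000922), and all 18 *Gata3*-GFP+ pools lay below the *Gata3*-GFP- median. *Pfkl* ran from 44.7 through 86.2 to 123 CPM against 44.2 through 134 to 214 and fell by 0.56 (SE 0.14, adjusted p = 0.00787). The study's test called neither (*Eno1* 0.0104, *Pfkl* 0.0364), and *Pfkl* did not pass in a fit of the 4 populations (0.0122).

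*Ldha* fell too without the 12 pools. The 3 calls stand beside 10.4% of genes, 4.94% higher and 5.48% lower. The pools of each of the 10 genes overlapped, with all pools (0.00619% of genes did not) and without the 12 (0.479%). *Ldha* ran from 743 through 1098 to 1188 CPM against 918 through 1356 to 1727 and fell by 0.37 (SE 0.08, adjusted p = 0.00116). *Eno1* fell by 0.60 (SE 0.08, adjusted p = 8.19e-07) and *Pfkl* by 0.64 (SE 0.13, adjusted p = 0.000405). *Hk2* and *Pkm* both had a log2 fold change of -0.07, with intervals of -0.33 to 0.20 and -0.20 to 0.05. The median of the 10 was -0.12 with all pools and -0.08 without the 12. Of the cycling genes 2 of 7 rose. None of the 6 MC markers passed in edgeR with all pools, and without the 12 pools all 6 fell, with a summed median of 115 CPM against 282. The part of these in the result was not tested. Scaled to the spike-ins the median of all genes became 0.35 and that of the 10 genes 0.27, and none of the 10 was called in edgeR (2 had an unadjusted p under 0.05).

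SNS pools had more of the lower enzymes than MC pools. With all pools, *Hk2*, *Aldoa*, *Pgk1*, *Pkm* and *Ldha* were higher in *Gata3*-GFP+ SNS (beside 24.5% of genes called and 12.5% higher), and *Pfkl*, *Aldoa*, *Pgk1*, *Eno1* and *Ldha* in *Gata3*-GFP- SNS (5.74%, 3.15% higher and 2.58% lower). No gene's pools were apart, against 0.0395% and 0.0169% of genes. Without the 12 pools, 8 genes were higher in *Gata3*-GFP+ SNS and *Pfkp* was lower (37.0% of genes called, 18.9% higher and 18.1% lower), and 6 were higher in *Gata3*-GFP- SNS (22.2%, 11.1% in each direction). *Pkm* was then 1.36 higher (SE 0.06, adjusted p = 3.19e-28) in *Gata3*-GFP+ SNS, where it ran from 886 through 1056 to 1351 CPM against 361 through 431 to 573 in MCs. *Ldha* was 1.45 higher (SE 0.10, adjusted p = 3.25e-20) in *Gata3*-GFP- SNS, with 918 through 1356 to 1727 CPM against 341 through 467 to 685. Pools then did not overlap for *Hk2*, *Aldoa*, *Pgk1*, *Pkm* and *Ldha* in the *Gata3*-GFP+ comparison (6.88% of genes) and for *Pgk1*, *Pkm* and *Ldha* in the other (3.23%). Of the pools whose markers went against their label, the 6 labelled SNS had 339 to 612 CPM of *Pkm* and the 6 labelled MC 991 to 1227 CPM. Each set lay outside the range of the other pools of its label.

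The difference of the GFP comparison between SNS and MCs passed for *Pfkp* with all pools (-2.31, SE 0.59, adjusted p = 0.00304), beside 9.66% of genes, 5.17% higher and 4.49% lower. Without the 12 pools it passed for *Pfkp* (-2.21, SE 0.59, adjusted p = 0.00452), *Hk2* (1.11, SE 0.23, adjusted p = 0.000261) and *Pkm* (0.43, SE 0.09, adjusted p = 0.000262), beside 10.4% of genes, 4.73% higher and 5.64% lower. *Hk2* and *Pkm* fell in MCs, and in SNS their intervals included 0.

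Isozyme balance was compared as the log2 ratio of 2 genes within a pool, each with 1 CPM added, which no scaling of the library moves other than through that 1 CPM. Two-sided permutation tests with 100000 resamples were adjusted over 12 tests, and 1e-05 is the smallest unadjusted p they can give. The ratio of *Hk2* to *Hk1* was lower in *Gata3*-GFP+ than in *Gata3*-GFP- ECs (mean -2.59 ± 1.24 SD, n = 19, against -0.40 ± 1.06, n = 20, permutation adjusted p = 3e-05). It was lower in HCs as well (0.35 ± 1.77 against 2.93 ± 0.65, n = 20 each, adjusted p = 3e-05), where 19 of 20 *Gata3*-GFP+ pools lay below the *Gata3*-GFP- median. In MCs the difference was -1.07 (adjusted p = 0.0144), and -1.54 (adjusted p = 0.00042) without the 12 pools. In SNS it was 0.01 (adjusted p = 0.982), and -0.26 (adjusted p = 0.368) without them. *Hk1* thus exceeded *Hk2* in CPM in every *Gata3*-GFP+ EC pool, where the highest ratio was -0.27. *Hk2* exceeded *Hk1* in every *Gata3*-GFP- HC pool, where the lowest ratio was 1.61. These CPM are not scaled to exon length, which is 8532 bases for *Hk1* and 5969 for *Hk2*.

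The ratio of *Pfkp* to *Pfkl* differed in MCs by 1.94 (adjusted p = 0.0002), with 19 of 20 *Gata3*-GFP+ pools above the *Gata3*-GFP- median, and by 2.51 without the 12 pools. In ECs it differed by -0.70 (adjusted p = 0.150), in HCs by 0.08 (adjusted p = 0.886) and in SNS by 0.22 (adjusted p = 0.713). The ratio of *Ldha* to *Ldhb*, the heart-type lactate dehydrogenase, was lower in *Gata3*-GFP+ ECs by 1.55 (difference -1.55, adjusted p = 3e-05) and in the HCs with GFP by 2.42 (difference -2.42, adjusted p = 3e-05). It was higher in *Gata3*-GFP+ MCs (difference 0.63, adjusted p = 0.00012), in 20 of 20 pools relative to the *Gata3*-GFP- median. In SNS the difference was 0.20 (adjusted p = 0.113), and 0.33 (adjusted p = 0.000411) without the 12 pools. In HCs the ratio moved mainly through *Ldhb*, which ran from 20.2 through 99.2 to 235 CPM with GFP and from 6.32 through 21.0 to 56.4 without, and rose by 2.27 (SE 0.24, adjusted p = 9.21e-10, edgeR). *Ldha* still exceeded *Ldhb* in all pools of ECs and HCs, with ratios of 2.80 or more.

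**Figure D4:**
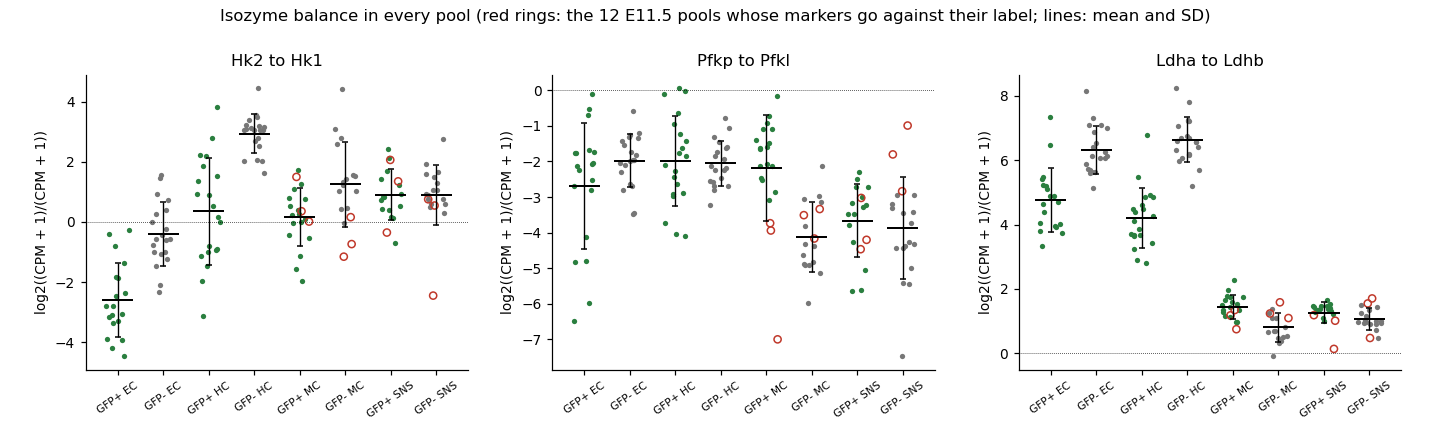
Log2 ratios of *Hk2* to *Hk1*, *Pfkp* to *Pfkl* and *Ldha* to *Ldhb* in each of the 153 passing pools, with 1 CPM added to each gene. Green points are *Gata3*-GFP+ and grey points *Gata3*-GFP- pools, lines the mean and SD, dotted lines a ratio of 0 and red rings the 12 pools whose markers go against their label; the *Hk2* to *Hk1* ratio is lower in *Gata3*-GFP+ ECs and HCs, and *Ldha* to *Ldhb* is above 2.80 in every EC and HC pool.

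Of the other enzymes of the pathway, a list of 16 of which 10 were tested in ECs, 4 fell there, beside 16.5% of all genes. These were *Gpi1* (glucose-6-phosphate isomerase, -1.07, SE 0.08, adjusted p = 2.48e-15), *Pgam1* (phosphoglycerate mutase, -1.02), *Tpi1* (triosephosphate isomerase, -0.84) and *Gapdh* (-0.85). *Gapdh*, which has many pseudogene copies, was counted at means of 7.85 to 20.3 CPM only. In HCs 3 of 12 rose, among them *Ldhb* and *Pfkm* (1.24), and 3 fell, *Hk3* (-0.95), *Gpi1* (-0.59) and *Tpi1* (-0.34), beside 17.1% of all genes higher and 9.53% lower. With all pools, none of 12 passed in MCs in edgeR, and in SNS *Ldhb* fell (-0.61, adjusted p = 0.00836) and *Adpgk* rose (0.49). *Ldhb* fell in MCs as well (-0.85, SE 0.10, adjusted p = 2e-07) without the 12 pools.

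Of 8 other glucose transporters, none of 3 tested passed in ECs, in edgeR, and 2 of 4 rose in HCs (17.1% of all genes did). *Slc2a3*, which encodes the high-affinity transporter GLUT3, rose in *Gata3*-GFP+ HCs from 45.9 ± 18.1 CPM to 206 ± 152 (log2 fold change 2.18, SE 0.28, adjusted p = 8.71e-08). It rose in *Gata3*-GFP+ SNS too (2.31, SE 0.54, adjusted p = 0.00447), from 3.40 ± 3.74 to 16.9 ± 21.5 CPM. *Slc2a1* itself had a log2 fold change of -0.08 and 0.01 in these comparisons.

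Genes of lactate and pyruvate handling, 12 of 14 tested in ECs, had 4 that fell and 2 that rose, beside 16.5% and 19.5% of all genes. The lactate transporters *Slc16a3* (-2.12, SE 0.38, adjusted p = 1.01e-05, edgeR) and *Slc16a1* (-1.28) and the pyruvate dehydrogenase kinase *Pdk1* (-1.01) fell. *Pdk2* (3.89-fold) and *Bsg* (0.49), the chaperone of lactate transporters, rose. In HCs *Slc16a1* (-0.73) and the pyruvate carrier *Mpc2* (-0.43) fell and *Pdk2* (1.77) and *Bsg* (0.23) rose. In SNS *Pdk1* fell with all pools (-1.45, adjusted p = 0.00877, edgeR). Of 11 regulators and side-branch genes, *Bpgm*, which makes 2,3-bisphosphoglycerate, rose in ECs from 24.3 ± 9.34 to 136 ± 36.9 CPM (2.45, SE 0.16, adjusted p = 6.43e-17), *Pfkfb2* rose and *Phgdh* (serine synthesis, -0.99) fell. In HCs *G6pdx* (-0.73) and *Pgd* (-0.70) of the pentose phosphate pathway and *Phgdh* (-0.93) fell, and *Bpgm* (0.91) rose. These stand beside 19.5% of all genes higher and 16.5% lower in ECs, and 17.1% and 9.53% in HCs. In MCs *Phgdh* rose with all pools (0.76, adjusted p = 0.00028, edgeR), beside 2.21% of all genes.

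Of 9 factors of the hypoxia response 3 rose and 1 fell in ECs. Those that rose were *Epas1* (HIF2-alpha), going from 94.3 ± 31.8 to 456 ± 90.8 CPM (2.23, SE 0.12, adjusted p = 7.22e-19), *Arnt* (0.66) and *Vhl* (0.50), and *Hif1a* fell by 0.38 (adjusted p = 0.005). Of 11 targets outside glycolysis 3 rose and none fell in edgeR, where 19.5% of all genes rose and 16.5% fell. They were *Vegfa* from 3.42 ± 2.70 to 43.8 ± 21.4 CPM (3.63, SE 0.33, adjusted p = 2.69e-12), *Ddit4* (1.65) and *Kdm3a* (0.51). *Myc* fell from 70.0 ± 22.8 to 19.9 ± 12.7 CPM (-1.85, SE 0.21, adjusted p = 1.14e-09). In HCs *Epas1* (1.98), *Arnt2* (3.47) and *P4ha2* (2.50) rose, from means of 1.89, 1.27 and 2.23 CPM to 7.18, 13.7 and 12.7 CPM, with under 10 counts in 17, 16 and 12 of the 20 pools without GFP. These folds rest on few reads. *Myc* fell there (-1.24, adjusted p = 5.02e-05). With all pools, neither list had a call in MCs in edgeR, and in SNS *Kdm3a* fell (-0.65). Without the 12 pools *Epas1* averaged 28.5 ± 19.5 CPM in MCs with GFP and 12.5 ± 9.54 in those without. In SNS it averaged 25.9 ± 30.9 and 3.86 ± 6.13 CPM, with under 10 counts in 8 of the 16 pools without GFP. *Hif1a* averaged 163 and 179 CPM in MCs, and 151 and 182 in SNS. *Myc* rose in MCs (1.03) and SNS (0.75) without the 12 pools.

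Among 20070 genes and 153 pools, the genes whose levels went most closely with the mean of the 10 were *Pgam1* (Pearson r 0.93), *Gpi1* (0.91), *Aldoart1* (0.90), *Gm1840* (0.89) and *Cotl1* (0.89). *Aldoart1* is 92.7% identical to *Aldoa* over 1508 bases and *Gm1840* 98.7% identical to *Gpi1* over 1046, so reads may be shared. *Cotl1*, which encodes an actin-binding protein, fell in *Gata3*-GFP+ ECs by 1.92 (adjusted p = 1.94e-16). Within populations the r of these 5 genes was 0.63 to 0.73. Between members the r ran from -0.21 to 0.94 over 45 pairs, with a median of 0.40, and of 0.25 within populations. *Ldha* went most closely with the mean of the others (0.95), followed by *Aldoa* (0.90) and *Pgk1* (0.89), and *Slc2a1* and *Hk1* least (both 0.15). Pools share depth and population, so these values are descriptions without a test.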

How the data were processed

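RNA of pools of 20 sorted cells was amplified by Smart-seq2, without molecular identifiers, with ERCC spike-in RNA. The deposited values are raw read counts per gene made by the authors with HTSeq. Their methods name STAR and Ensembl release 81, while the submitters' processing notes name GSNAP, HTSeq 0.5.3p3 and mm10, and the conflict was not resolved. The strand setting is not given in the sources used here. Columns carry the population but no pool number.

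The 5 summary rows held a median of 51.2% of counts and were left out, of which ambiguous reads made 16.3% and unaligned reads 23.0%. Pools needed 500000 reads, over 20% on genes, and under 20% on mitochondrial genes and on spike-ins, which left out 3 *Gata3*-GFP- MC, 2 *Gata3*-GFP+ SNS, 1 *Gata3*-GFP- SNS and 1 *Gata3*-GFP+ EC pools. Depth limits low genes, and the counts without molecular identifiers are not independent molecules. No pair of pools held identical values.

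Tests used edgeR 4.0.16 (R 4.3.3, TMM, robust quasi-likelihood F test) on genes with 10 counts in at least 5 pools, with Benjamini-Hochberg adjustment over all genes tested and a threshold of 0.01. GFP comparisons were fitted on both populations of a cell type, comparisons between cell types and the difference of GFP comparisons on the 4 populations of a day, and level orders on all 8. CPM were scaled by TMM factors over the 8 populations. Isozyme ratios and their permutation tests used numpy 2.4.6. Alternatives were DESeq2 1.42.0, scran 1.30.0 size factors with the study's scanpy 1.11.5 test, spike-in scaling, other filters and left-out pools. Scripts were tested on simulated data.

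Named genes were the 10 members, *Gapdh*, *Tpi1*, *Gpi1*, *Pgam1*, *Slc2a3*, *Ldhb*, *Hif1a*, *Epas1* and *Myc*, in each other list and GFP comparison up to 4 genes past the threshold with the largest change and at least 10 CPM in the higher population, and the 5 genes most correlated with the members. Genes listed outside that rule (*Pfkfb2*, *Gata3*, *Pdk2* and *Bsg* where they fall outside it) were named after their values were seen. Another result is not reported here. Members and lists were chosen with earlier results of these data known. Copies were found with blastn 2.17.0 (97% identity over 125 bases), and annotation was GENCODE M21.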

Additional observations from a re-analysis of the deposited data

Results flagged for a closer look

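The *Gata3*-GFP+ versus *Gata3*-GFP- log2 fold change differed between HCs and ECs for 6 of the 10 genes, by a test of the difference itself in edgeR. The difference, HC minus EC, was 1.76 for *Pkm*, 1.16 for *Eno1*, 1.03 for *Pfkl*, 0.97 for *Ldha*, 0.56 for *Aldoa* and 0.52 for *Pgk1*. Between SNS and MCs it was -2.31 for *Pfkp* with all pools. Without the 12 pools whose markers went against their label it was -2.21 for *Pfkp*, 1.11 for *Hk2* and 0.43 for *Pkm*.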

How the results depend on the processing

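Of the counts of genes called under an alternative, 94 stayed within 1.5 times the reported count and 15 did not. In HCs, 5 calls became 3 with spike-in scaling and 3 without 7 pools. In MCs, 1 call became 2 at an adjusted p under 0.05, 2 with DESeq2, 2 with the study's test, 4 without the 12 pools and 0 with spike-in scaling in edgeR (3 at an unadjusted p under 0.05). In SNS, 2 calls became 1 in a fit of 4 populations, and 0 with spike-in scaling and 0 with the study's test (2 at an unadjusted p under 0.05 in each). Between *Gata3*-GFP+ SNS and MCs, 5 became 9 with spike-in scaling and 9 without the 12 pools. The SNS and MC difference went from 1 to 2 at 0.05, 3 without the 12 pools and 0 with spike-in scaling in edgeR (4 unadjusted). All genes called went from 698 to 1586 in MCs, 624 to 1631 in SNS and 1017 to 3847 between *Gata3*-GFP- SNS and MCs without the 12 pools. The *Hk2* to *Hk1* ratio in SNS was -0.26 with all 160 pools and -0.26 without the 12, and *Ldha* to *Ldhb* 0.33 without them. Log2 fold changes reversed 28 times, each in a value that was not called. With spike-in scaling these were *Hk1* in ECs (-0.077), in SNS *Hk2* (0.38), *Pfkp* (0.024), *Aldoa* (0.23), *Pgk1* (0.32), *Pkm* (0.35) and *Ldha* (0.079), and in the SNS and MC difference *Slc2a1* (0.19), *Pfkl* (0.10) and *Ldha* (0.20). Without the 12 pools they were *Hk1* in MCs (0.28), and *Slc2a1* (-0.048) and *Pfkp* (0.10) in SNS. With the study's test they were *Hk1* (0.32), *Eno1* (0.0064) and *Ldha* (0.037) in MCs and *Slc2a1* (-0.017), *Hk2* (0.091) and *Pkm* (0.017) in SNS. With failing pools kept they were *Ldha* in MCs (0.043), *Slc2a1* in SNS (-0.00064) and *Aldoa* in the SNS and MC difference (-0.017). Without a filter they were *Hk1* (0.0026) and *Ldha* (0.011) in MCs and *Hk2* in the HC and EC difference (-0.023), which was also -0.0060 without 2 EC pools and -0.0037 without 7 HC pools. *Pfkp* in HCs was 0.036 without the 7 pools. The cause was not tested. The alternatives that left out pools by their markers or their counts on genes were chosen after seeing the data. No paired analysis was possible because the columns carry no replicate numbers. Depth limits *Hk2* in *Gata3*-GFP+ ECs and *Pfkp*.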
